A study of Mus musculus with 6 samples.

Results

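The Kruppel-like factors are transcription factors that share 3 C-terminal zinc fingers, and 10 of their genes were followed here in the left ventricle of mice lacking the nuclear receptor corepressor NCoR1 in cardiomyocytes. Klf2, Klf3, Klf4, Klf6, Klf7, Klf9, Klf10, Klf12, Klf13 and Klf15 were chosen by symbol, and they make up 10 of the 17121 genes in the count table. RNA was sequenced from 3 cardiomyocyte-specific NCoR1 knockout mice (CMNKO; numbered 16, 17 and 18) and 3 littermate controls (LC; numbered 15, 25 and 26), 1 library per mouse. All were 2 months of age and on a background given as C57BL/6 in the labels and as C57BL6/J in the study's methods. The knockout was made by crossing mice with floxed NCoR1 alleles to mice that express Cre recombinase from the αMHC promoter, which is active in cardiomyocytes, whereas the RNA came from whole ventricle with its endothelial cells, fibroblasts, smooth muscle and blood cells. The sources used here do not state whether the LC mice carried the floxed alleles or the Cre transgene. The endothelial members (Klf2, Klf4) were set against the members tied to cardiomyocyte metabolism (Klf15, Klf9), and the other members were described after them.

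Kruppel-like factors bind GC-rich and CACCC-type elements through their zinc fingers, and their differing N-terminal parts recruit coactivators or corepressors. In blood vessels, laminar flow acts through the kinases MEK5 and ERK5 and the MEF2 factors to raise Klf2 and Klf4, which in turn raise anticoagulant and vasodilator genes such as Thbd and Nos3. In the heart, Klf15 drives genes for the use of fatty acids and branched-chain amino acids and restrains hypertrophic growth, and Klf9 and Klf15 are both raised by glucocorticoids and follow the circadian clock.

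The start-site regions of Klf2, Klf4 and Klf15 are shown because MEF2 sites and E-boxes, the elements bound by flow-responsive and clock factors, are the ones through which these genes are usually discussed. RefSeq sequences of the GRCm38.p6 build, running from 250 bases before to 50 bases after the start of the gene, matched 9 of the 10 members, without Klf10. The windows lie at chr8:72318812-72319111 on the plus strand for Klf2, at chr4:55532426-55532725 on the minus strand for Klf4 and at chr6:90462326-90462625 on the plus strand for Klf15. Each is printed 5′ to 3′ on the strand of the gene, with the MEF2 motif and the E-box CACGTG in capitals.
Klf2: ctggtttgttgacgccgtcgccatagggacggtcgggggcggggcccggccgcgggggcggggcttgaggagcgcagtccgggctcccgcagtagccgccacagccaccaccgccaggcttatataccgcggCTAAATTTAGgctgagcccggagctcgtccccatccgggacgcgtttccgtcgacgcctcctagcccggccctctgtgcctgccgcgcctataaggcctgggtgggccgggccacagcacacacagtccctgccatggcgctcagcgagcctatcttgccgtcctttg
Klf4: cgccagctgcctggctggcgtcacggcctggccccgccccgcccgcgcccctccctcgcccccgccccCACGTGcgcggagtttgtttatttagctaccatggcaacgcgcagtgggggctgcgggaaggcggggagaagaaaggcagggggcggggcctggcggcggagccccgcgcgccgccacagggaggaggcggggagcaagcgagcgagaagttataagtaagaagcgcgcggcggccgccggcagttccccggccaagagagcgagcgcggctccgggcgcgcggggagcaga
Klf15: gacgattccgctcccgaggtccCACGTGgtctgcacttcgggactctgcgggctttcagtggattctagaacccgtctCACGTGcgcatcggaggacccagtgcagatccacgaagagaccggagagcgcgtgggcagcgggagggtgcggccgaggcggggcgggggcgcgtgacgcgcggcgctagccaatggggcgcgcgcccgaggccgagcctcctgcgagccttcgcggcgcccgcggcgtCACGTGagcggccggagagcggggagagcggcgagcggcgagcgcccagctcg
A search of both strands found the MEF2 motif in 1 of the 9 windows, that of Klf2, where its first base lies 118 bases before the start. The same motif was found in 3.19% of the 32851 mouse start-site windows of this length. The E-box CACGTG was found in 3 of the 9 windows against 7.15% of all windows, once each in Klf4 (182 bases before the start) and Klf6 (43 bases before) and at 3 places in Klf15 (228, 172 and 3 bases before). CACCC was present in 7 of the 9 windows against 57.5% of all windows, and the GC box GGGCGG in 7 of the 9 against 35.7%. TATAAA was found in 1 window (Klf12) against 13.6% of all windows, and AGAACA, a core of the glucocorticoid response element, in 0 of the 9 against 19.0%. The GC content of the windows ran from 45.7% (Klf12) to 76.7% (Klf3), and its part in these matches was not tested. These matches describe letters in the windows and are not evidence of binding.

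The 6 libraries held between 6319488 and 8752609 counted reads. The knocked-out gene separated the groups: Ncor1 was at 50.5, 51.3 and 42.4 CPM (read counts scaled to library totals adjusted by TMM factors, which align the bulk of the genes between libraries) in CMNKO mice 16, 17 and 18, against 110.6, 102.0 and 90.7 CPM in LC mice 15, 25 and 26. This was a log2 fold change of -1.07 ± 0.13 (SE; adjusted p = 0.00845 in the quasi-likelihood test of edgeR, adjusted after Benjamini and Hochberg). It was -1.20 with an adjusted p of 0.0158 in a fit with library series as a further term. The series come from the library numbers in the sample titles, which run on from one another for CMNKO 16 to 18 and LC 15 (series 1) and lie apart for LC 25 and LC 26 (series 2). Series 2 holds LC mice alone, what separates the series is not stated, and LC 15 is the one control in the series of the knockouts. On the first principal component of the log2 CPM values, which held 48.7% of the variance, LC 25 and LC 26 lay at 34.6 and 36.7 and the other 4 libraries, LC 15 among them, between -22.8 and -10.1. Mitochondrially encoded genes took 36.1% of the reads in LC 25 and 32.8% in LC 26, against 26.3% to 27.9% in the other 4 libraries. With these genes left out of the fit, the log2 fold change of Klf2 was 1.05 (adjusted p = 0.0276, edgeR). Those of Klf9 and Klf15 were 0.43 and -0.28. The part in the members' values of whatever lies behind these shares was not tested. Without LC 15 genotype and series cannot be told apart, and with series as a term the genotype difference rests on LC 15 as the sole control. The members and lists are given from both fits. Of 13040 genes with enough reads to test, 35 were higher (0.268%) and 44 lower (0.337%) in CMNKO at an adjusted p under 0.05, and 24 were higher and 20 lower when libraries were scaled by their totals alone. Without CMNKO 16 or without CMNKO 17, 0 genes passed the edgeR test (1006 higher and 823 lower at an unadjusted p under 0.05 without CMNKO 16, 955 and 720 without CMNKO 17), so every call given here was lost there. Without LC 15, 2624 passed. Ncor1 was also lost without CMNKO 18 (adjusted p = 0.0536). The p-values weigh the group difference against the spread among these mice within groups. In the fit of genotype alone, the LC spread includes the difference between series.

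All 10 members had enough reads to be tested, with 47 to 682 counted reads per gene and library. One of the 10, Klf2, rose in CMNKO ventricles, set against 0.268% of all tested genes that did, and 0 of the 10 fell, against 0.337% of all tested genes. DESeq2 and limma-voom also called Klf2 alone in this direction and none in the other. At an unadjusted p under 0.05 the edgeR test gave 3 of 10 members higher (Klf2, Klf4 and Klf9), against 10.1% of all tested genes, and 0 lower, against 8.8%. Klf2 was also the single member whose CMNKO and LC values did not overlap, 1 higher and 0 lower of 10, where 11.2% of all tested genes were non-overlapping with CMNKO higher and 12.3% with CMNKO lower. The log2 fold change was above 0 in 8 members and below 0 in Klf12 and Klf15, with a median of 0.32 over the 10 against 0.0012 over all tested genes. With series as a term the median over the members was 0.039.

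**Figure D1:**
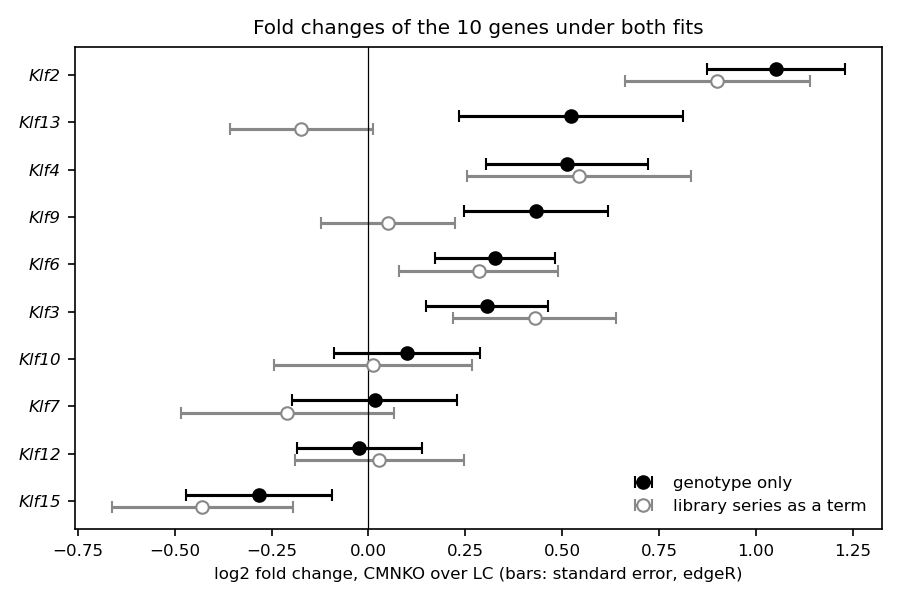
Log2 fold change of CMNKO over LC for the 10 genes, from a fit of genotype alone (filled) and one with library series as a further term (open), with standard errors from edgeR as bars. Klf2 lies farthest to the right in both (1.05 and 0.90), Klf4 keeps its value (0.51 and 0.54), and Klf13 moves across 0 (0.52 and -0.17).

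Expression of the family in the ventricle was ordered per kilobase of exon, since counts alone favour long transcripts. In CMNKO mice, Klf2 had the highest mean level, 22.02 CPM per kb with mice between 18.4 and 27.1, followed by Klf15 at 19.0 (15.5 to 25.3) and Klf9 at 17.7 (16.9 to 18.5), and these 3 ranges overlapped. In LC mice Klf15 came first at 23.1 CPM per kb (20.3 to 25.5), and its range lay above that of every other member. Klf9 followed in LC mice at 13.1 CPM per kb (9.43 to 17.1), overlapping with Klf2 at 10.7 (9.08 to 11.8). Klf2 was thus on a level with the metabolic members in CMNKO ventricles and below Klf15 in LC ventricles. Klf6 stood at 11.9 CPM per kb in CMNKO mice (9.96 to 14.4), against 9.50 in LC mice (8.68 to 10.02). Klf4 stood at 10.2 CPM per kb in CMNKO mice (6.97 to 12.6), against 7.13 in LC mice (6.37 to 8.01). The remaining members were lower in both groups, down to Klf7 at 1.02 CPM per kb in CMNKO and 1.02 in LC mice, and Klf7 lay below the range of every other member in each group. Klf13 and Klf3 could not be put in order in either group, nor could Klf10 and Klf12.

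**Figure D2:**
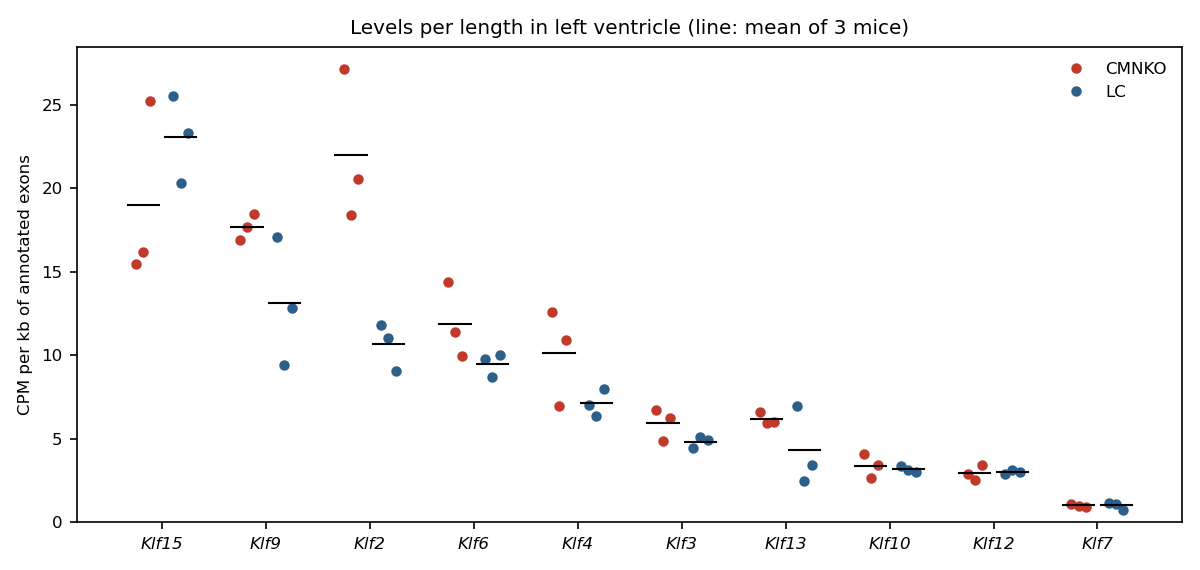
Level of each of the 10 genes in each mouse, in CPM per kilobase of merged exon, with CMNKO mice left of LC mice and genes in the order of their LC means and a bar at each group's mean. Klf2 has the highest CMNKO mean (22.02) and Klf15 the highest LC mean (23.1), and Klf7 is lowest in both.

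Klf2, which endothelial cells raise under steady flow, rose in CMNKO ventricles. It was at 50.1, 34.0 and 37.9 CPM in CMNKO mice 16, 17 and 18 (40.7 ± 8.43, SD, n = 3), against 21.8, 20.4 and 16.8 CPM in LC mice 15, 25 and 26 (19.7 ± 2.61, n = 3). All CMNKO mice were above all LC mice, and LC 15 lay beside the other controls. The log2 fold change was 1.05 ± 0.18 (SE; adjusted p = 0.0287, edgeR, Benjamini-Hochberg). With series as a term it was 0.90 and the adjusted p of the edgeR test was 0.245. In series 1 alone the log2 fold change was also 0.90, in a fit with LC 15 as the single control, which is assumed to vary as the knockouts do. When leaving out 1 mouse at a time, the call held only without LC 15 (adjusted p = 0.0024), where genotype and series cannot be told apart. Without any other mouse the adjusted p lay between 0.0692 (without LC 25) and 0.148 (without CMNKO 16), going through 0.0757 without CMNKO 18, 0.0816 without CMNKO 17 and 0.115 without LC 26.

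Klf4, the close relative of Klf2 that acts in endothelium and also in smooth muscle and macrophages, did not pass the test. It was at 38.2, 21.1 and 33.0 CPM in CMNKO mice (30.8 ± 8.79, SD, n = 3), against 21.2, 19.3 and 24.3 CPM in LC mice (21.6 ± 2.49, n = 3). CMNKO 16 and 18 were above all controls, while CMNKO 17 lay within their range. For Klf4 the log2 fold change was 0.51 ± 0.21 (SE; adjusted p = 0.224, edgeR), and 0.54 with series as a term. The highest CMNKO value of Klf4 was 1.81 times the lowest, the widest CMNKO spread among the 10 genes. In log2 CPM, Klf2 minus Klf4 was 0.39, 0.68 and 0.20 in CMNKO mice, against 0.04, 0.08 and -0.52 in LC mice, so Klf2 differed more than Klf4 between the groups within these libraries, by 0.56 on average.

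Markers of endothelial cells were also at higher values in CMNKO libraries. The summed level of 12 endothelial markers was 1043 to 1177 CPM in CMNKO mice, against 686 to 915 CPM in LC mice, and none of the 12 was at 0 in any library. All 12 had a log2 fold change above 0, with a median of 0.54 (0.31 with series as a term), but 0 of 12 passed the edgeR test, against 10 at an unadjusted p under 0.05, 6 by DESeq2 and 0 by limma-voom. The receptors Kdr and Tie1 had the lowest p among them, with log2 fold changes of 0.55 and 0.59. Relative to the mean log2 CPM of these markers, Klf2 was at -0.73, -1.15 and -1.11 in CMNKO mice, against -1.59, -1.24 and -1.54 in LC mice. The values did not overlap, and the mean difference was 0.45 once the markers were subtracted. Klf4 relative to the same markers was at -1.12, -1.83 and -1.31 in CMNKO mice, against -1.63, -1.32 and -1.01 in LC mice, with overlap and a mean difference of -0.10. In bulk tissue, more cells of a type and more RNA per cell cannot be told apart, and the part of endothelial content in the Klf2 result was not tested.

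**Figure D3:**
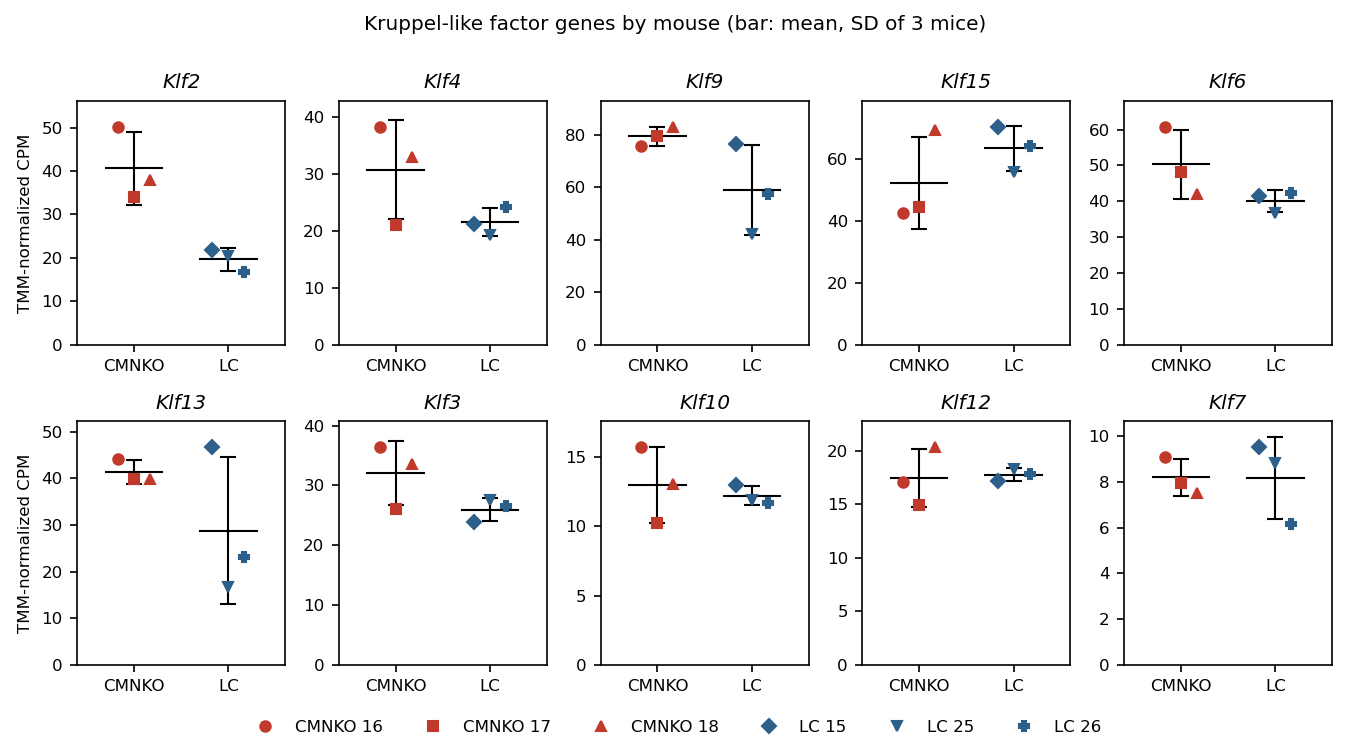
CPM of each of the 10 genes by mouse, CMNKO left of LC, with a symbol for each mouse, a bar at the mean and whiskers of 1 SD. The groups are apart in Klf2 alone (CMNKO 34.0 to 50.1, LC 16.8 to 21.8), and in Klf9 and Klf13 LC 15 lies with the CMNKO mice.

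Genes on the route from flow to Klf2 and Klf4 and genes downstream of both factors gave few calls. Of 10 genes of the MEK5-ERK5 route and its regulators, 0 passed the edgeR test in either direction, and DESeq2 and limma-voom each called 0. At an unadjusted p under 0.05, 1 was higher (Heg1) and 2 were lower (Mef2a and Krit1). The median log2 fold change was 0.12 (0.03 with series as a term). The list holds kinases and MEF2 factors beside Krit1, Ccm2, Pdcd10 and Heg1. These can act in opposite directions, so the counts and the median give no direction for the route. Mef2a, which encodes a MEF2 factor that is abundant in cardiomyocytes, was at 110, 109 and 107 CPM in CMNKO mice, against 141, 154 and 151 CPM in LC mice (log2 fold change -0.45, adjusted p = 0.0963, edgeR; -0.37 with series as a term). The values did not overlap, but the difference missed the threshold. Heg1, an endothelial receptor, had a log2 fold change of 0.45 (adjusted p = 0.141). Of 8 tested endothelial genes that KLF2 or KLF4 raise, 0 passed the edgeR test (4 higher at an unadjusted p under 0.05, 3 by DESeq2 and 0 by limma-voom), and the median was 0.44 (0.21 with series as a term). Nos3, the endothelial nitric oxide synthase, was at 44.1, 40.8 and 38.4 CPM in CMNKO mice, against 25.7, 27.8 and 27.5 CPM in LC mice, with LC 15 among the controls (log2 fold change 0.61, adjusted p = 0.0681, edgeR, and 0.68 with series as a term). Thbd, the anticoagulant thrombomodulin, had 72.3, 48.2 and 60.6 CPM in CMNKO mice, against 42.6, 31.4 and 30.7 CPM in LC mice (0.79, adjusted p = 0.0805, and 0.51 with series as a term). Sema6a, a semaphorin, had a fold change of 0.73 on the log2 scale (adjusted p = 0.0736). Genes that KLF2 or KLF4 lower gave 0 calls among the 7 tested (2 higher and 1 lower at an unadjusted p under 0.05, 2 by DESeq2 and 0 by limma-voom), with a median of 0.04 that became 0.68 with series as a term. Icam1, a leukocyte adhesion molecule on that list, had a log2 fold change of 0.94 (adjusted p = 0.0953).

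Neither metabolic member passed the test, and the estimates lay on opposite sides of 0. Klf15 was at 42.7, 44.6 and 69.6 CPM in CMNKO mice (52.3 ± 14.9998, SD, n = 3), against 70.4, 56.0 and 64.2 CPM in LC mice (63.5 ± 7.21, n = 3). CMNKO 16 and 17 were below all controls, while CMNKO 18 lay inside the range of the controls. For Klf15 the log2 fold change was -0.28 ± 0.19 (SE; adjusted p = 0.423, edgeR), and -0.43 with series as a term. Klf9, a repressor that glucocorticoids and thyroid hormone raise, was at 75.8, 79.4 and 82.9 CPM in CMNKO mice (79.3 ± 3.53, n = 3), against 76.6, 42.3 and 57.5 CPM in LC mice (58.8 ± 17.2, n = 3). The CMNKO mice were close to each other, and LC 15 lay among them, above LC 25 and LC 26. The log2 fold change of Klf9 was 0.43 ± 0.19 (SE; adjusted p = 0.245, edgeR), and 0.05 with series as a term. Without LC 15 it was 0.66 with an adjusted p of 0.0087, a comparison in which genotype and series cannot be told apart. Of the cardiomyocyte markers, 12 summed to 82710 to 90988 CPM in CMNKO mice, against 75260 to 94256 CPM in LC mice, and none was at 0. Their median log2 fold change was 0.06 (-0.06 with series as a term), and 0 passed the edgeR test (1 higher and 3 lower at an unadjusted p under 0.05, 1 lower by DESeq2). The troponins Tnnt2 and Tnni3 were the lowest in p, at -0.58 and -0.41. Relative to their mean log2 CPM, Klf9 differed by 0.47 between the groups and by 0.15 between CMNKO and LC 15, and Klf15 differed by -0.31 between the groups.

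Set against each other as pair means, the endothelial members stood higher relative to the metabolic members in CMNKO ventricles. On the means of all 6 mice this came through Klf2 and Klf15. The mean log2 CPM of Klf2 and Klf4 minus that of Klf9 and Klf15 was -0.38, -1.14 and -1.10 in CMNKO mice 16, 17 and 18 (-0.87 ± 0.43, SD, n = 3), against -1.76, -1.28 and -1.58 in LC mice 15, 25 and 26 (-1.54 ± 0.24, n = 3). The groups did not overlap, and LC 15 was the lowest of all 6. The mean difference was 0.67, and between 0.42 and 0.80 when 1 mouse was left out, and 0.91 with series as a term. Among single pairs, Klf2 minus Klf15 was 0.23, -0.39 and -0.87 in CMNKO mice, against -1.68, -1.44 and -1.92 in LC mice, a difference of 1.34. Klf4 and Klf9 did not shift against each other on the means of all mice. With series as a term they did, with log2 fold changes of 0.54 for Klf4 and 0.05 for Klf9. The mean log2 CPM of Klf4 was 4.91 in CMNKO and 4.44 in LC mice, and that of Klf9 was 6.31 and 5.84. Klf2 was at 5.34 and 4.31, and Klf15 at 5.68 and 5.99. Within the metabolic pair, Klf9 minus Klf15 was 0.82, 0.83 and 0.25 in CMNKO mice, against 0.12, -0.40 and -0.16 in LC mice, a difference of 0.78. These ratios cancel the depth of a library, and no test was run on them, because 3 mice against 3 cannot reach significance in a permutation test and the pairs were chosen with results of these data known.

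**Figure D4:**
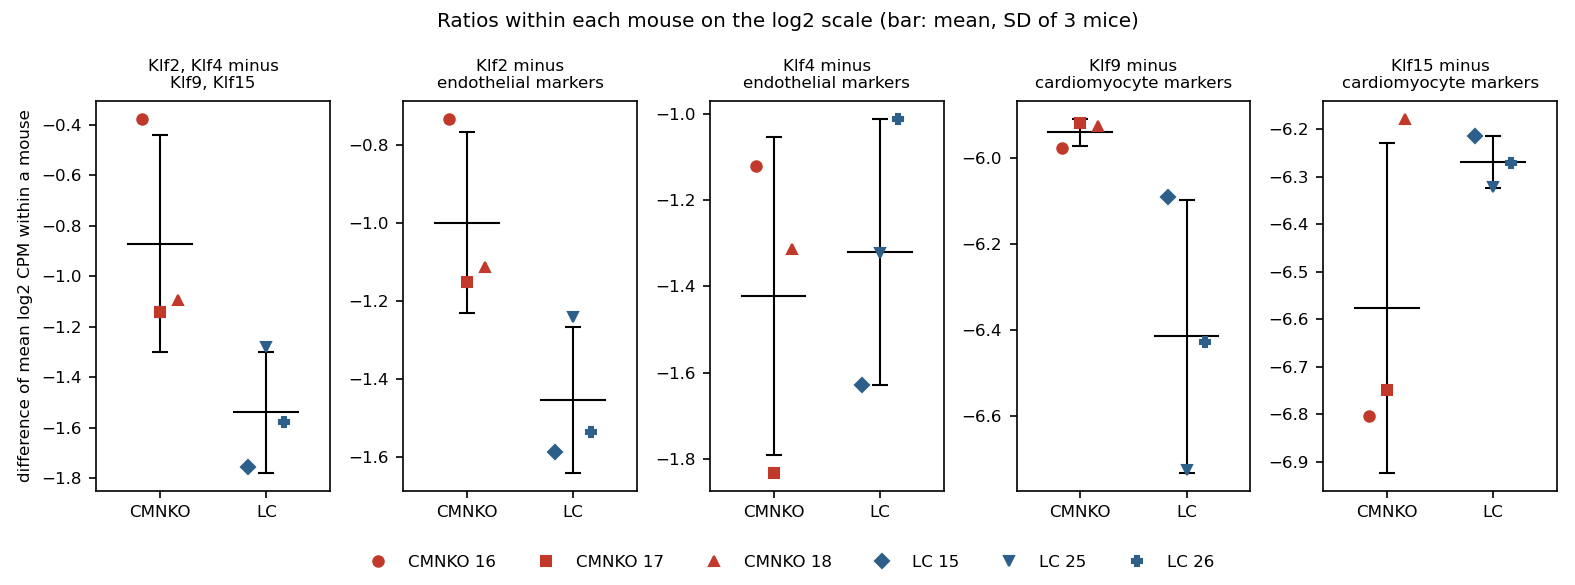
Differences in log2 CPM within each mouse, CMNKO left of LC, between the endothelial and metabolic members and between each of these 4 genes and the mean of its cell type's markers, with a bar at each mean and whiskers of 1 SD. The endothelial minus metabolic value lies between -1.14 and -0.38 in CMNKO mice and between -1.76 and -1.28 in LC mice, and Klf2 minus the endothelial markers is also without overlap.

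Genes downstream of Klf15 and genes sharing its inputs gave few calls. Of 12 genes that KLF15 raises, metabolic but for the potassium channel subunit gene Kcnip2 (-0.39), 1 rose and 0 fell. At an unadjusted p under 0.05, 2 were higher and 4 lower. The median log2 fold change of the list was 0.05, and -0.16 with series as a term. The 4 lower ones were Aldh6a1 (-0.44), Slc27a1 (-0.42), Bckdhb (-0.41) and Dbt (-0.35). With series as a term these were -0.25, -0.57, -0.28 and -0.25. The gene that rose was Pdk4, the kinase that shuts off pyruvate dehydrogenase when fatty acids are burned, at 504, 334 and 544 CPM in CMNKO mice, against 204, 213 and 265 CPM in LC mice (1.02, adjusted p = 0.0399, edgeR). All CMNKO mice were above all controls, LC 15 included, and with series as a term the value was 1.17 with an adjusted p of 0.134. The call was also lost without CMNKO 18 (0.141), LC 25 (0.132) or LC 26 (0.0701). Slc2a4, the insulin-responsive glucose transporter GLUT4, was at 405, 384 and 472 CPM in CMNKO mice, against 388, 224 and 246 CPM in LC mice, where LC 15 lay with the knockouts (0.55, adjusted p = 0.172, and 0.12 with series as a term).

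Of 12 genes on a list of glucocorticoid response, 1 rose and 0 fell (2 higher and 0 lower at an unadjusted p under 0.05). The median was 0.40, and -0.09 with series as a term. The list holds mainly glucocorticoid-raised genes, and also Nr3c1, the gene of the glucocorticoid receptor, at -0.32. Mt2, a metallothionein that binds zinc, was the gene that rose, at 41.4, 30.9 and 24.6 CPM in CMNKO mice, against 14.8, 15.6 and 8.78 CPM in LC mice (1.32, adjusted p = 0.0425, edgeR). The adjusted p was 0.336 with series as a term, 0.0628 without CMNKO 18, 0.0596 without LC 25 and 0.119 without LC 26. The summed level of the list was 829, 640 and 689 CPM in CMNKO mice, against 794, 421 and 485 CPM in LC mice, so that LC 25 and LC 26 were low beside the other libraries, as they were for Klf9 and Klf13. Fkbp5, a chaperone strongly raised by glucocorticoids, was at 37.3, 18.03 and 37.9 CPM in CMNKO mice, against 60.4, 5.47 and 15.3 CPM in LC mice, the widest spread falling within the controls. The part of these genes' shared low values in the Klf9 and Klf13 results was not tested.

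Clock genes set LC 26 apart. Arntl, which encodes the clock activator BMAL1, was at 6.22, 3.91 and 5.02 CPM in CMNKO mice, against 0.468, 0.804 and 13.6 CPM in LC mice 15, 25 and 26. The CMNKO mice thus lay above LC 15 and LC 25 and below LC 26. The log2 fold change of Arntl was -0.04, and 3.40 with series as a term. Without LC 26, Arntl passed the edgeR test as higher in CMNKO. Dbp, a clock output in the opposite phase, was at 60.0, 110.9 and 100.4 CPM in CMNKO mice, against 73.2, 77.5 and 17.8 CPM in LC mice. Of 13 clock genes, 0 passed the edgeR test (1 higher at an unadjusted p under 0.05, 1 by DESeq2 and 0 by limma-voom), with a median of 0.35 (0.22 with series as a term). Nr1d1, the clock repressor REV-ERBα, which works through NCoR1, was at 55.1, 92.1 and 95.2 CPM in CMNKO mice, against 50.5, 36.8 and 41.0 CPM in LC mice (0.91, adjusted p = 0.0797, edgeR, and 0.67 with series as a term). The repressor Cry1 had a log2 fold change of 0.64 (adjusted p = 0.286). Klf9 and Klf15 of LC 26 lay within the range of the other controls, at 57.5 and 64.2 CPM, and the part of the clock in their values was not tested.

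Klf6, an activator raised early after vascular injury, was at 60.7, 48.1 and 42.1 CPM in CMNKO mice (50.3 ± 9.51, SD, n = 3), against 41.3, 36.7 and 42.3 CPM in LC mice (40.1 ± 3.02, n = 3). CMNKO 16 and 17 were above the controls and CMNKO 18 was level with the highest of them. Its log2 fold change was 0.33 ± 0.16 (SE; adjusted p = 0.282, edgeR), and 0.28 with series as a term. Immediate early genes, the first to respond to stress or handling of tissue, had 0 of 14 past the edgeR test (8 higher at an unadjusted p under 0.05, 5 by DESeq2 and 1, Jun, by limma-voom) with a median of 0.62 (0.71 with series as a term). Jun was at 48.2, 50.2 and 45.7 CPM in CMNKO mice, against 26.2, 22.04 and 33.7 CPM in LC mice (0.81, adjusted p = 0.0555), and Junb had a log2 fold change of 0.97 (adjusted p = 0.0698). Klf2, Klf4, Klf6 and Klf10 can respond in the same rapid way, and the part of these genes in the members' values was not tested.

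Klf13, which takes part in heart development and in lymphocytes, followed the library series. It was at 44.2, 39.8 and 39.9 CPM in CMNKO mice (41.3 ± 2.52, SD, n = 3), against 46.6, 16.7 and 23.1 CPM in LC mice (28.8 ± 15.8, n = 3). LC 15 had the highest value of all 6 libraries and LC 25 the lowest, a 2.79-fold range within the controls and the widest of any member. The log2 fold change was 0.52 ± 0.29 (SE; adjusted p = 0.343, edgeR), -0.17 with series as a term, and 1.04 without LC 15 (adjusted p = 0.00153). In log2 CPM, LC 15 exceeded the mean of LC 25 and LC 26 by 1.24 for Klf13 and by 0.63 for Klf9, against -0.18 to 0.35 for the other 8 members. Lymphocyte markers were near the limit of detection, summing to 8.41 to 11.3 CPM in CMNKO mice, against 10.8 to 13.9 CPM in LC mice, with Cd3e and Cd79a at 0 in at least 1 library and 1 of 8 markers, Ptprc, tested (log2 fold change -0.20, and -0.26 with series as a term, not past the threshold).

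Klf10, an early gene of TGF-beta signalling, was between 10.2 and 15.7 CPM in CMNKO mice, against 11.7 to 12.9 CPM in LC mice, with a log2 fold change of 0.10 ± 0.19 (SE; adjusted p = 0.795), and 0.01 with series as a term. Of 10 other TGF-beta-raised genes, 1 rose and 0 fell (8 higher at an unadjusted p under 0.05), with a median of 0.60 (0.45 with series as a term). The one that rose was Tgfb3, a TGF-beta ligand, at 23.5, 18.6 and 24.2 CPM in CMNKO mice, against 9.98, 6.44 and 7.08 CPM in LC mice (1.498, adjusted p = 0.0111, edgeR). Its adjusted p was 0.126 with series as a term, 0.0542 without CMNKO 18 and 0.0586 without LC 26. The CMNKO and LC values of Tgfb3 were apart, and those of Klf10 overlapped.

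Klf3, a repressor that recruits the corepressor CtBP, was at 36.3, 26.1 and 33.6 CPM in CMNKO mice (32.0 ± 5.30, SD, n = 3), against 23.9, 27.5 and 26.5 CPM in LC mice (25.95 ± 1.88, n = 3). CMNKO 17 lay among the controls, and the log2 fold change of 0.31 ± 0.16 did not pass (SE; adjusted p = 0.312), nor did that of 0.43 with series as a term. Klf12, another CtBP-dependent repressor, was between 14.95 and 20.3 CPM in CMNKO mice, against 17.2 to 18.3 CPM in LC mice (-0.02 ± 0.16, adjusted p = 0.947, and 0.03 with series as a term). Klf7, best known from the development of neurons, was between 7.53 and 9.11 CPM in CMNKO mice, against 6.16 to 9.52 CPM in LC mice (0.02 ± 0.21, adjusted p = 0.973, and -0.21 with series as a term). The CMNKO values of Klf12 enclosed those of the controls, and the LC values of Klf7 enclosed those of the knockouts. Exons of Klf3 and Klf7 overlap those of genes on the other strand in the GENCODE annotation, and since strand use in counting is not given, reads of such partners cannot be told apart.

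The genes most like Klf2 over the 6 libraries, by Pearson's r of log2 CPM, were Ptk2 (0.994), which encodes focal adhesion kinase, Rragc (0.994), a GTPase of amino acid sensing by mTORC1, 2700089E24Rik (0.990), Tor3a (0.989) and Ubap1 (0.989), and 84 genes had an r above 0.95. For Klf15 they were Ppfia3 (0.994), LOC102632565 (0.980), Apoa1bp (0.975), Rtn2 (0.973) and Pkig (0.973), with 25 genes above 0.95. The 6 points share genotype and library series, and these values are a description.

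Markers of other cell types are given for the remaining sources of Kruppel-like factor RNA in the ventricle. Of 8 smooth muscle and pericyte markers, 1 rose (6 higher at an unadjusted p under 0.05), with sums of 741 to 1075 CPM in CMNKO mice, against 307 to 488 CPM in LC mice. Their median log2 fold change was 0.76, and 0.13 with series as a term. The marker that rose was Acta2, smooth muscle actin, at 432, 391 and 698 CPM in CMNKO mice, against 138, 70.5 and 172 CPM in LC mice (2.00, adjusted p = 0.0195, edgeR). With series as a term the value of Acta2 was 1.88 with an adjusted p of 0.181, and the adjusted p was 0.0628 without CMNKO 18. Macrophage markers summed to 275 to 399 CPM in CMNKO mice, against 237 to 260 CPM in LC mice, with 0 of 7 past the edgeR test (3 higher at an unadjusted p under 0.05, 0 by DESeq2). Their median was 0.44 (0.24 with series as a term), with Csf1r (0.67) and C1qb (0.41) lowest in p. Fibroblast markers summed to 577 to 940 CPM in CMNKO mice, against 525 to 661 CPM in LC mice, with 0 of 8 past the edgeR test (3 higher at an unadjusted p under 0.05, 0 by DESeq2). Here the median was 0.28 (0.22 with series as a term), with Col1a1 (1.17) and Col1a2 (1.11) lowest in p. With series as a term these 2 genes were at 0.48 and 0.34. None of the smooth muscle, macrophage or fibroblast markers was at 0 in any library. Neutrophil and red cell markers summed to 286 to 321 CPM in CMNKO mice, against 316 to 462 CPM in LC mice, with S100a9 at 0 in at least 1 library and 0 of 5 past the edgeR test (3 lower at an unadjusted p under 0.05, 0 by DESeq2). For these the median was -0.32 (-0.05 with series as a term), and the globin genes Hbb-bt (-0.45) and Hbb-bs (-0.42) were lowest in p. With series as a term Hbb-bt was at -0.21 and Hbb-bs at -0.05. Adipocyte markers differed by library, with sums of 23.6, 10.6 and 1.00 CPM in CMNKO mice, against 2.03, 0 and 0 CPM in LC mice, and each of the 6 genes was at 0 in at least 1 library. Klf4 is made in smooth muscle and macrophages and Klf15 in fat as well as in muscle, and the part of these cells in the members' values was not tested.

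**Figure D5:**
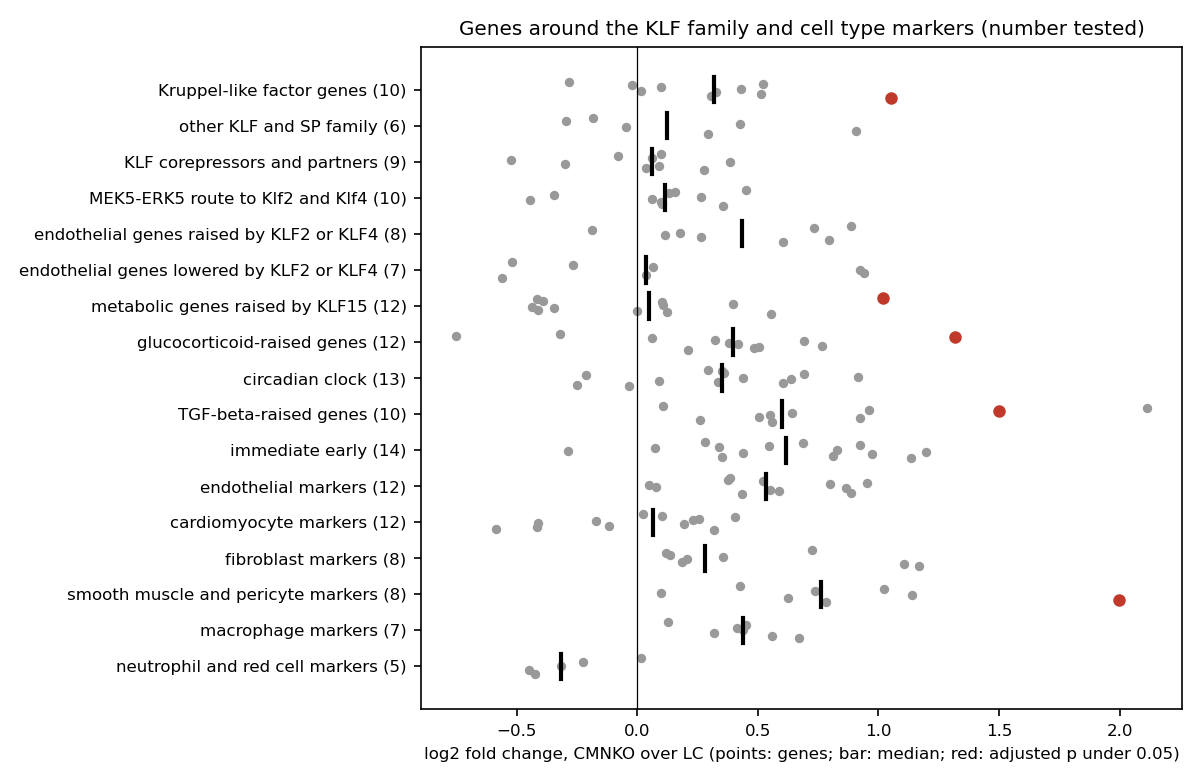
Log2 fold change of CMNKO over LC for every tested gene of each list but the lymphocyte and adipocyte lists, which are not drawn. Genes past an adjusted p of 0.05 are in red, and the median of each list is a black bar. The medians are 0.54 for the 12 endothelial markers and 0.06 for the 12 cardiomyocyte markers, and the genes past the threshold are Klf2 (1.05), Pdk4 (1.02), Mt2 (1.32), Tgfb3 (1.498) and Acta2 (2.00).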

How the data were processed

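Left ventricle RNA of 3 CMNKO and 3 LC mice was sequenced, and the deposited table gives, per the authors, read counts per gene and mouse. The sources used here give no aligner, counter or annotation. The submitters' notes name the mm8 build. Columns holding the authors' group means, fold changes and FDR values were not used. Counts (6319488 to 8752609 per library) were scaled by TMM in edgeR 4.0.16 (R 4.3.3), filtered with filterByExpr and tested with the quasi-likelihood test over all 13040 kept genes, with Benjamini-Hochberg adjustment at 0.05. The procedure was tested on simulated data that held genotype changes but no difference between library series, so it cannot speak to the part of series. CPM are TMM-scaled, and log2 CPM used a prior count of 2. A second fit added library series, taken from the library numbers in the titles. Alternatives used DESeq2 1.42.0, limma-voom (limma 3.58.1), other scalings, filters, left-out mice, left-out mitochondrially encoded genes, and series 1 alone, chosen after seeing the data. Named genes were the 10 members, Ncor1, the 5 genes closest to Klf2 and to Klf15 by Pearson's r, other KLF and SP genes, and of each list the genes past the threshold or else the 2 with the lowest p. Thbd, Slc2a4, Aldh6a1, Slc27a1, Bckdhb, Dbt, Fkbp5, Arntl and Dbp were singled out after their values were seen. One gene that the rule names is not reported here. The members and the lists were chosen with earlier results of these data known. Levels per kb used merged exons of GENCODE vM21.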

Additional observations from a re-analysis of the deposited data

How the results depend on the processing

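The number of genes past the threshold over all tested genes was 79 with TMM scaling and edgeR, 367 with DESeq2, 128 with upper-quartile scaling, 44 with library totals alone (24 higher and 20 lower, against 35 and 44, with the median of all genes moved to 0.12), 22 with series as a term, 51 in series 1 alone (where LC 15 is the single control), and 0 to 2624 with 1 mouse left out. It was 0 without CMNKO 16 (1006 higher and 823 lower at an unadjusted p under 0.05) and without CMNKO 17 (955 higher and 720 lower), and 2624 without LC 15, and 11, 36 and 25 without CMNKO 18, LC 25 and LC 26. The number of members past it was 1, 0 with series as a term, 0 in series 1 alone (1 at an unadjusted p under 0.05 in each) and 0 to 3 with 1 mouse left out. The log2 fold change of Klf2 lay between 0.87 and 1.17 over all alternatives. That of Ncor1 was -1.15 to -0.99 across the fits that drop a mouse, where edgeR gave an adjusted p of 0.0862, 0.0759 and 0.0536 without CMNKO 16, 17 and 18. Some values changed sign, most of them small. Klf7 was -0.015 with upper-quartile scaling, -0.21 with series as a term, -0.21 in series 1 alone and -0.16 to 0.14 with 1 mouse left out. Klf12 was 0.098 with library totals, 0.028 with series as a term, 0.028 in series 1 alone and -0.15 to 0.075 with 1 mouse left out. Klf10 was -0.062 to 0.24 with 1 mouse left out. Klf13, which was not small at 0.52 in the main fit, was -0.17 with series as a term and -0.17 in series 1 alone. Sp1 was 0.073 with library totals and -0.18 to 0.033 with 1 mouse left out, and Pkig was 0.025 with library totals. The cause was not tested. Among the single genes, the settings other than series 1 alone left 719 values on the same side of the threshold, weakened 28, strengthened 35 and reversed 13. No paired analysis was possible because no mouse number occurs in both groups. With 3 mice a group, differences as small as those of Klf3 or Klf6 could not be told from the spread.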

Other observations

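Other genes of the Kruppel-like and SP families gave no call. Of 6 tested, 0 passed the edgeR test in either direction (1 higher at an unadjusted p under 0.05, 0 by DESeq2 and 0 by limma-voom), and the median log2 fold change was 0.12 (-0.01 with series as a term). Klf16, a repressor of the same branch as Klf9 and Klf13, was at 4.002, 4.05 and 4.27 CPM in CMNKO mice, against 2.96, 1.77 and 1.84 CPM in LC mice, without overlap but at a low level. Its log2 fold change was 0.91 (adjusted p = 0.149 by edgeR's quasi-likelihood model), and 0.47 with series as a term. Among the others, the log2 fold change was 0.43 for Sp2, 0.29 for Klf11, -0.05 for Sp1, -0.18 for Sp4 and -0.30 for Sp3, none past the threshold.

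Of 9 corepressors and partners of the family tested, 0 passed the edgeR test (1 lower at an unadjusted p under 0.05, 0 by DESeq2 and 0 by limma-voom), with a median log2 fold change of 0.06 (-0.10 with series as a term). Sin3b, a scaffold of histone deacetylase complexes, was at 44.6, 48.9 and 52.0 CPM in CMNKO mice, against 54.1, 59.0 and 65.7 CPM in LC mice, without overlap (-0.30, adjusted p = 0.248). Sap30, another subunit of the SIN3 complex, was at 7.11, 4.61 and 4.27 CPM in CMNKO mice, against 6.40, 11.1 and 5.90 CPM in LC mice (-0.53, adjusted p = 0.350). Both genes had the lowest p on the list, and neither passed.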
